A study of Homo sapiens with 12 samples.

Results

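Integrins and the proteins of focal adhesions, the plaques through which a cell grips the matrix around it, were followed here through 38 gene symbols: 10 integrin alpha subunits, 5 integrin beta subunits, 9 integrin activators and actin linkers, 4 genes of the ILK complex, 4 kinases, and 6 adaptors and scaffolds. All probes whose annotated gene is 1 of these symbols were taken. The array holds 70 such probes for 36 of the symbols. No probe is annotated to ITGA11 or FLNA in the probe table used here, and these genes were not analysed. Another 5 genes (ITGA1, ITGA7, ITGA10, ITGB3 and ITGB4) stayed under a signal of 100 in at least 1 array of every group, so that 31 members were tested among 9808 genes.

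U2OS, a human osteosarcoma line, was transfected with scramble siRNA (siCtl), with siRNAs against NCoR (siNCoR) or with siRNAs against SMRT (siSMRT) (a mix of 3 siRNAs for each co-repressor). After 2 days the cells received either vehicle (no treatment in the sample labels) or 100 µM cisplatin (CDDP), a platinum drug that crosslinks DNA, for 6 h. Each of the 6 groups has 2 biological replicates, 12 one-colour arrays in all. The study asked which part of the transcriptional response to CDDP depends on either co-repressor. All groups are of 1 cell line that was transfected, none was left without siRNA, and p values rest on the spread between 2 arrays per group.

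An integrin is a pair of 1 alpha and 1 beta subunit that spans the membrane and binds collagen, fibronectin or laminin outside the cell. Talin and kindlin bind the beta tail and switch the receptor on, vinculin, alpha-actinin and tensin tie it to actin, and the complex of ILK, PINCH and parvin bridges the same gap. Focal adhesion kinase and Src-family kinases signal from the plaque through docking proteins such as paxillin and p130Cas. The set is thus a receptor layer, a mechanical layer and a signalling layer.

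Values below are log2 of the normalized intensity, the error is the standard error (SE) of a limma fit over all 12 arrays, and a gene was called at an adjusted p under 0.05 over all 9808 genes. The raw arrays have medians of 54.0 to 65.3 and 27.0% to 31.4% of probes above 100. The knock-down itself was not analysed here. Of 9 osteoblast lineage markers, 5 (COL1A1, SPARC, SPP1, ALPL and RUNX2) were above the floor and 4 (COL1A2, IBSP, BGLAP and SP7) were below it. Markers of other cell types are given after the results.

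CDDP lowered 9 of the 31 adhesion genes and raised 1 in siCtl cells, against 37.6% of all 9808 genes called in that comparison, 19.5% lower and 18.2% higher. In siNCoR cells 11 were lower and 0 higher (all genes 40.7%, of which 21.2% lower and 19.6% higher; 0 members were higher at an unadjusted p under 0.05 either). In siSMRT cells 8 were lower and 1 higher (all genes 42.9%, 21.6% lower and 21.3% higher); with the authors' processed values 11 were lower and 0 higher. The members called were therefore no more frequent than called genes in general, but they lay almost wholly on the lower side. The median log2 difference of the 31 was -0.14, -0.24 and -0.13 in siCtl, siNCoR and siSMRT cells, where all genes had 0.03, 0.03 and 0.03. These 3 comparisons share no array. In a bulk RNA sample, fewer cells that carry a transcript and less transcript per cell cannot be told apart.

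**Figure D1:**
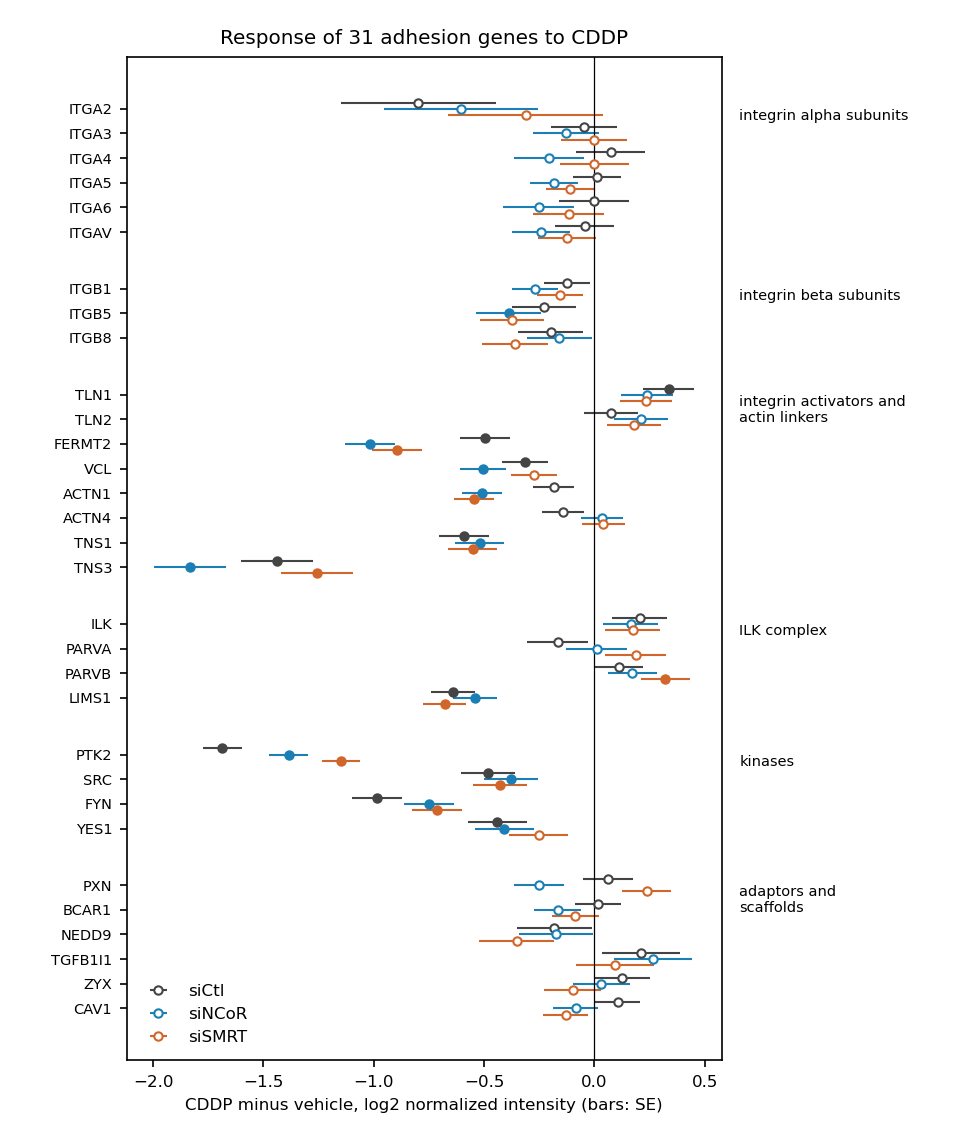
CDDP minus vehicle (log2 normalized intensity, horizontal axis) for each of the 31 tested genes, ordered by role, in siCtl, siNCoR and siSMRT cells; points are differences of means of 2 arrays, bars are SE and filled points have an adjusted p under 0.05. PTK2 and TNS3 lie farthest to the left, beyond -1.1 in all siRNA groups, and all but 3 of the filled points are those of kinases, FERMT2, VCL, ACTN1, the tensins and LIMS1.

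The same 7 genes, FERMT2, FYN, LIMS1, PTK2, SRC, TNS1 and TNS3, fell with CDDP under all 3 siRNAs, which is 22.6% of the tested members. Of all genes 26.1% were called the same way in all 3, 14.8% lower and 11.2% higher, and 0 members rose in all 3. By role they are 3 of 4 kinases, 3 of 8 activators and linkers, 1 of 4 genes of the ILK complex, 0 of 9 integrin subunits and 0 of 6 adaptors and scaffolds.

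PTK2 encodes focal adhesion kinase, the tyrosine kinase recruited when integrins cluster. Its level was 12.81 and 12.91 in the siCtl arrays with vehicle and 11.18 and 11.17 with CDDP. In siNCoR cells it was 13.09 and 13.17 with vehicle and 11.76 and 11.74 with CDDP, and in siSMRT cells 13.08 and 13.06 against 11.87 and 11.98. Every CDDP array lay below every vehicle array, and among the CDDP arrays the siCtl pair was lowest and the siSMRT pair highest. The log2 differences were -1.69 in siCtl cells (SE 0.088, 3.22-fold lower, limma adjusted p = 3.2e-07), -1.39 in siNCoR cells (2.61-fold lower) and -1.15 in siSMRT cells (2.22-fold lower).
A second PTK2 probe (signal 140.4 to 227.1) fell in siCtl (-0.50) and siNCoR cells (-0.40), and had -0.12 in siSMRT cells, which did not pass (adjusted p = 0.384).

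The Src-family kinases SRC, FYN and YES1 phosphorylate FAK and its partners. FYN had levels of 6.94 and 7.01 with vehicle and 6.08 and 5.90 with CDDP in siCtl cells, 7.46 and 7.61 against 6.66 and 6.91 in siNCoR cells, and 7.21 and 7.04 against 6.39 and 6.44 in siSMRT cells. Within each siRNA group the CDDP arrays lay below the vehicle arrays, with differences of -0.98, -0.75 and -0.71 (SE 0.113). FYN is a dim gene on this array, between 82.4 and 218.0 before background correction and under 100 in both siCtl arrays with CDDP. Its 2 other probes above the floor were also lower in all siRNA groups, with differences from -0.53 to -0.87.
SRC was at 9.18 and 9.04 with vehicle and 8.53 and 8.73 with CDDP in siCtl cells, with differences of -0.48, -0.38 and -0.43 in siCtl, siNCoR and siSMRT cells. YES1 fell in siCtl (-0.44) and siNCoR cells (-0.41), whereas its -0.25 in siSMRT cells did not pass (adjusted p = 0.148), the replicate pairs giving -0.45 and -0.05. These smaller changes lost their call without single arrays, while the difference kept its sign. With median scaling YES1 did not pass in siCtl (limma adjusted p = 0.0609) or siNCoR cells (0.0607). Without a detection filter neither SRC (0.0618) nor YES1 (0.0609) passed in siNCoR cells. SRC in siCtl cells had an adjusted p = 0.0657 without siCtl+vehicle replicate 1 and 0.0736 without siCtl+CDDP replicate 1. In siNCoR cells it had 0.221 without siNCoR+vehicle replicate 1 (difference -0.24) and 0.155 without siNCoR+CDDP replicate 2 (-0.31). In siSMRT cells it had 0.0543, 0.0671 and 0.125 (differences -0.45, -0.41 and -0.32) without siSMRT+vehicle replicate 1, siSMRT+vehicle replicate 2 and siSMRT+CDDP replicate 2. YES1 had 0.137 and 0.127 in siCtl cells without siCtl+vehicle replicate 1 and siCtl+CDDP replicate 2, and in siNCoR cells 0.146, 0.0576 and 0.242 (differences -0.35, -0.47 and -0.25) without siNCoR+vehicle replicate 1, siNCoR+vehicle replicate 2 and siNCoR+CDDP replicate 2.

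Tensins hold the beta integrin tail to actin. TNS3 was at 10.94 and 10.86 with vehicle and 9.72 and 9.21 with CDDP in siCtl cells. It was at 10.39 and 9.97 against 8.41 and 8.29 in siNCoR cells, and at 10.77 and 10.74 against 9.58 and 9.42 in siSMRT cells. The siNCoR arrays were the lowest under either treatment, while siCtl and siSMRT arrays overlapped with CDDP. The differences were -1.44, -1.83 (3.56-fold lower) and -1.26 (SE 0.163).
TNS1, at 7.27 and 7.51 with vehicle and 6.77 and 6.84 with CDDP in siCtl cells, had differences of -0.59, -0.52 and -0.55 (SE 0.112). The 3 values differ by less than 1 SE.

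FERMT2 encodes kindlin-2, which activates integrins together with talin. It was at 11.69 and 11.78 with vehicle and 11.24 in both CDDP arrays of siCtl cells. The siNCoR arrays read 12.53 and 12.35 with vehicle and 11.58 and 11.27 with CDDP, and the siSMRT arrays 11.75 and 11.83 against 10.94 and 10.84. Its differences were -0.49 in siCtl cells (SE 0.113), -1.02 in siNCoR cells and -0.89 in siSMRT cells. ACTN1, an alpha-actinin gene of non-muscle cells, fell in siNCoR (-0.51) and siSMRT cells (-0.54) and had -0.19 in siCtl cells, which did not pass (adjusted p = 0.133). With median scaling of the arrays the siSMRT value was -0.26 and did not pass (adjusted p = 0.168).
VCL, which encodes vinculin, fell in siCtl (-0.32) and siNCoR cells (-0.51) and had -0.27 in siSMRT cells (adjusted p = 0.051, and 0.0151 with the replicate number as a block). Its second probe had 0.05, -0.14 and 0.14, none of them passing. The VCL call in siCtl cells was lost in 6 of 21 alternatives. Among them are median scaling (-0.28, limma adjusted p = 0.144), no detection filter (-0.32, 0.0824) and a fit of only the arrays compared (-0.32, 0.0637). The others left out siCtl+vehicle replicate 1, siCtl+CDDP replicate 1 or siCtl+vehicle replicate 2, with differences of -0.368, -0.222 and -0.265.

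The talins did not follow the kindlin. TLN1, the main talin of most tissues, rose in siCtl cells (0.34, SE 0.118, adjusted p = 0.0404), from 8.84 and 9.19 to 9.30 and 9.40. It had 0.24 and 0.23 in siNCoR and siSMRT cells, which did not pass. Its call in siCtl cells was lost in 9 of 21 alternatives, among them the authors' processed values (adjusted p = 0.0557), median scaling (0.328), and leaving out siCtl+vehicle replicate 1 (0.356), siCtl+CDDP replicate 1 (0.0734), siCtl+CDDP replicate 2 (0.173), siSMRT+vehicle replicate 1 (0.0537) or siSMRT+vehicle replicate 2 (0.0541). TLN2 had 0.08, 0.21 and 0.18 and ACTN4 -0.14, 0.04 and 0.04, none of which passed.

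In the ILK complex, LIMS1 (the adaptor PINCH-1) was the single faller. It was at 11.69 and 11.70 with vehicle and 11.02 and 11.09 with CDDP in siCtl cells, at 11.57 and 11.76 against 11.12 and 11.13 in siNCoR cells, and at 11.15 and 11.10 against 10.54 and 10.35 in siSMRT cells. The differences of -0.64, -0.54 and -0.68 (SE 0.099) lay within 2 SE of each other, and a second probe gave -0.50, -0.52 and -0.60. ILK itself, the pseudokinase at the centre of the complex, had 0.21, 0.17 and 0.17 and did not pass, although its second probe rose in siNCoR cells (0.60, adjusted p = 0.026). PARVB, a parvin, rose in siSMRT cells (0.32, adjusted p = 0.0329) and had 0.11 and 0.17 in siCtl and siNCoR cells, which did not pass. The difference between its siSMRT and siCtl responses did not pass either (0.21, SE 0.155). Without siSMRT+vehicle replicate 1, siSMRT+vehicle replicate 2 or siSMRT+CDDP replicate 2 its adjusted p was 0.153, 0.0671 and 0.214, and it was 0.065 with the authors' processed values.

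The receptors themselves moved little with CDDP. No integrin alpha subunit passed in any siRNA group, and of the beta subunits ITGB5 fell in siNCoR cells (-0.39, adjusted p = 0.0494). ITGB1, the beta subunit shared by most collagen, fibronectin and laminin receptors, was well measured (signal 11905 to 15885) and had -0.12, -0.27 and -0.16, with 95% intervals of -0.35 to 0.11, -0.50 to -0.04 and -0.38 to 0.07. The ITGB5 call is marginal: other probes of the gene had -0.04 and -0.18 in siNCoR cells, and it was lost in 13 of 21 alternatives. Among them are leaving out siNCoR+vehicle replicate 2 (-0.21, adjusted p = 0.356) and siNCoR+CDDP replicate 1 (-0.26, 0.263), and the call was also lost, at adjusted p values of 0.0557 to 0.0634, without either siSMRT+vehicle, siCtl+CDDP or siSMRT+CDDP array. ITGA3, ITGA5 and ITGAV, the alpha partners for laminin, fibronectin and vitronectin, lay between -0.24 and 0.01.
ITGA2, a collagen-binding alpha subunit, was the exception in size. Its siCtl arrays read 8.31 and 8.90 with vehicle and 7.48 and 8.13 with CDDP, replicate 2 lying above replicate 1 under both treatments. The difference of -0.80 (SE 0.351) had an adjusted p = 0.0948, but the replicate pairs gave -0.83 and -0.77. With the replicate number as a block it passed in siCtl cells (SE 0.198, adjusted p = 0.00556) and in siNCoR cells (-0.60, adjusted p = 0.0232), not in siSMRT cells (-0.31).
The block added further calls for CDDP. In siNCoR cells these were ITGB1 (adjusted p = 0.0374), ITGA6 (-0.25, 0.0463) and TGFB1I1 (0.27, 0.0314). In siSMRT cells they were ITGB5 (-0.37, 0.00688), ITGB8 (-0.36, 0.0392) and NEDD9 (-0.35, 0.0324), besides VCL. With the block 11, 15 and 13 members were called in siCtl, siNCoR and siSMRT cells, where 44.5%, 48.3% and 50.7% of all genes were.

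The adaptors PXN (paxillin), BCAR1 (p130Cas), NEDD9, TGFB1I1 (Hic-5) and ZYX (zyxin) and the scaffold CAV1 gave 0 of 6 calls with CDDP in each siRNA group by limma (0, 1 and 0 at an unadjusted p under 0.05 in siCtl, siNCoR and siSMRT cells). Their differences ran from -0.18 to 0.21 in siCtl cells. PXN is close to the floor (signal 95.8 to 124.7). Where the adaptors have further probes these did not always follow: a second ZYX probe rose in siNCoR (0.39, adjusted p = 0.0301) and siSMRT cells (0.42, 0.02), and a dim NEDD9 probe fell in siSMRT cells (-0.56, 0.00432). A dim ITGA6 probe also fell in siSMRT cells (-0.57, 0.00655).

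**Figure D2:**
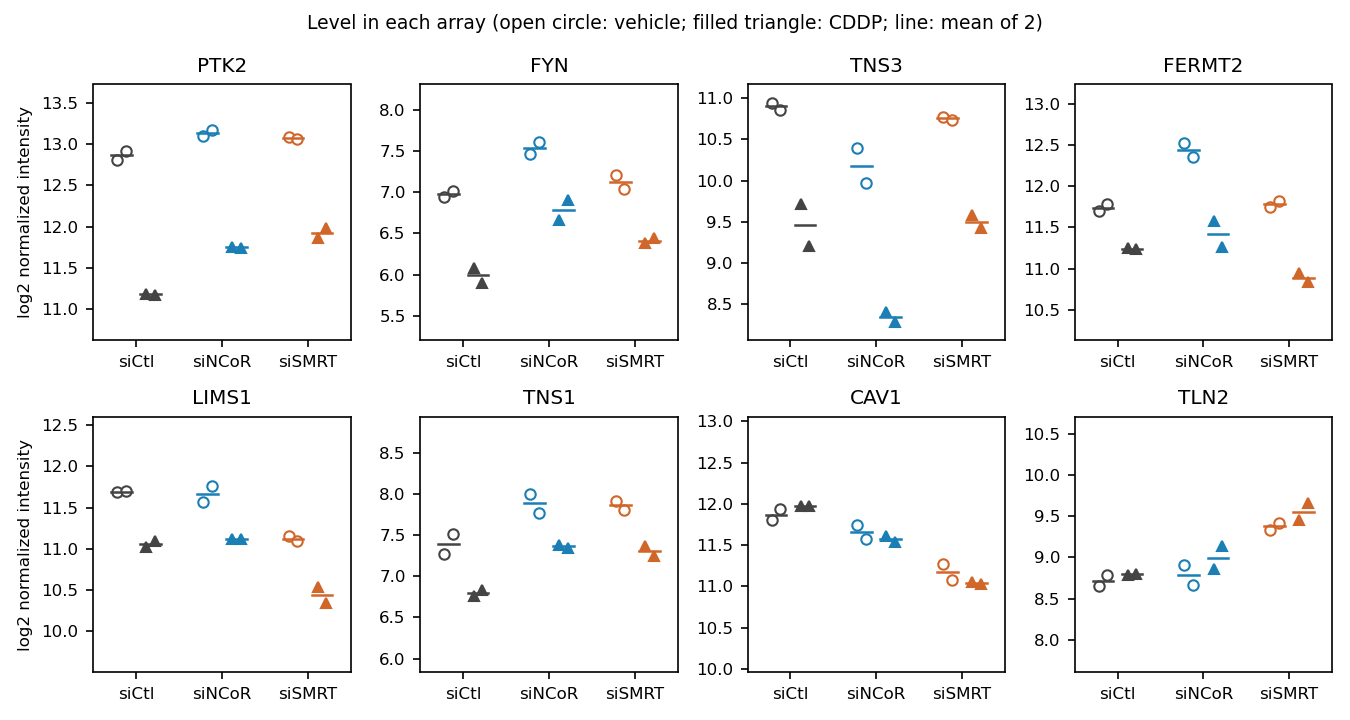
Level of 8 members in each of the 12 arrays (log2 normalized intensity; open circles vehicle, filled triangles CDDP, lines the mean of 2 arrays), by siRNA; all panels span the same number of log2 units. In the first 6 panels the CDDP arrays lie below the vehicle arrays of the same siRNA, while CAV1 is lowest and TLN2 highest in the siSMRT arrays with either treatment.

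Length of the gene moved with these values. Over the 31 members the CDDP difference in siCtl cells had a Pearson correlation of -0.60 and a Spearman correlation of -0.66 with the log of the length from first to last base (RefSeq, GRCh38.p14); over 9801 genes these were -0.48 and -0.50. Genes are not independent replicates, and the values are a description. In siNCoR and siSMRT cells the members had Pearson correlations of -0.52 and -0.48 and all genes -0.49 and -0.45. Among all genes, 62.1% of the longest decile (149 kb and over) were lower in siCtl cells and 5.71% of the shortest decile. In siNCoR and siSMRT cells 58.1% and 53.3% of the longest decile were lower. Of 9 members in the longest decile, 5 were lower in each siRNA group: PTK2 (344.2 kb), TNS3 (307.4 kb), TNS1 (234.2 kb), FYN (213.1 kb) and LIMS1 (153.6 kb). TLN2 is longer than any of these (454.1 kb) and had 0.08. NEDD9 (199.1 kb), PARVB (173.7 kb) and PARVA (158.9 kb) had -0.18, 0.11 and -0.17 in siCtl cells, not passing, and NEDD9 was lower in siSMRT cells with the replicate block. Among the shorter genes FERMT2 (93.8 kb) and SRC (61.4 kb) fell in each siRNA group, and none of the 9 members in the 7 shortest deciles was lower. The part of length in the falls was not tested.

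**Figure D3:**
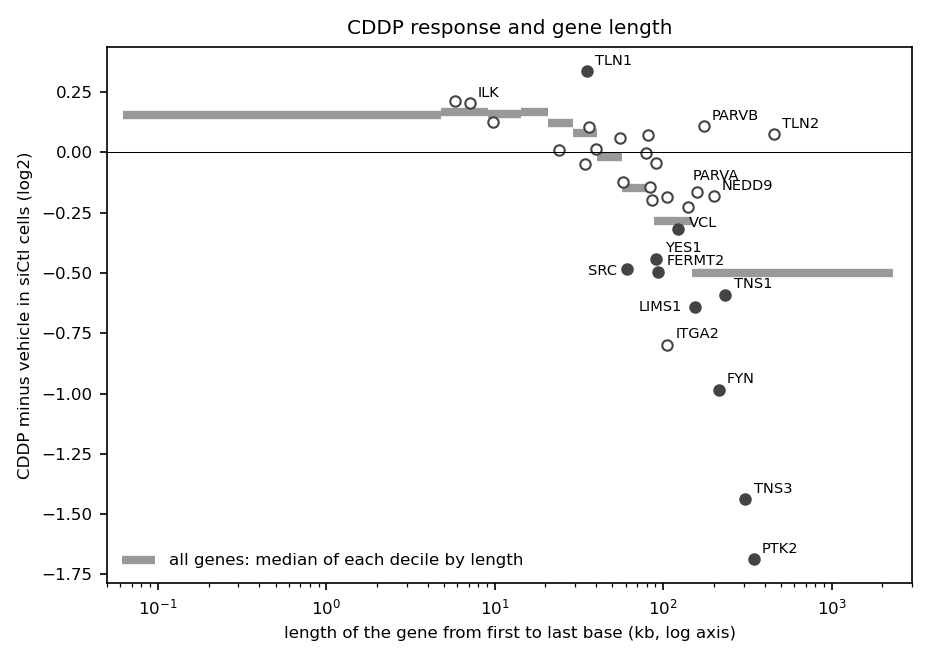
CDDP minus vehicle in siCtl cells (log2, vertical axis) against the length of each of the 31 members in kb (log axis); filled points have an adjusted p under 0.05 and grey bars show the median of all genes in each decile by length. The bars go from 0.15 in the shortest to -0.50 in the longest decile, with PTK2, TNS3, FYN, LIMS1 and TNS1 below and TLN2, PARVB, PARVA and NEDD9 above the last bar.

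The start regions of the genes that fell in all 3 siRNA groups are shown because these members moved together. RefSeq promoters (GRCh38.p14, 250 bases before to 50 after the start) were matched for 27 of the 31 tested members and for 5 of these 7 genes. The 150 bases before the first listed start are given 5′ to 3′ on the strand of the gene, with matches to the SP1 motif GGGCGG, or CCGCCC when read from the other strand, in capitals.
FERMT2 (chr14:52951051-52951200, minus strand): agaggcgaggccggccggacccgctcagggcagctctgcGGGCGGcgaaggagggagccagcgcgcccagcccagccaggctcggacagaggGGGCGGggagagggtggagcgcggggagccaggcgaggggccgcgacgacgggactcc
FYN (chr6:111873453-111873602, minus strand): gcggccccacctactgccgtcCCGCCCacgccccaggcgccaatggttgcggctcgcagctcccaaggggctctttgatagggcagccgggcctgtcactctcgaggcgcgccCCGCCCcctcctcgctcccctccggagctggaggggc
LIMS1 (chr2:108534320-108534469, plus strand): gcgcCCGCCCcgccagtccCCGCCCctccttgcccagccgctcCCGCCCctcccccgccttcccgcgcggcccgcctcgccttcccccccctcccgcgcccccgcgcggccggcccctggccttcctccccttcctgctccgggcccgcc
TNS1 (chr2:218010276-218010425, minus strand): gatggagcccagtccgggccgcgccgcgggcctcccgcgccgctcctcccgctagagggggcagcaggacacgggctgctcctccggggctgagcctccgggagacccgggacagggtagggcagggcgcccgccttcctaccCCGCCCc
TNS3 (chr7:47582587-47582736, minus strand): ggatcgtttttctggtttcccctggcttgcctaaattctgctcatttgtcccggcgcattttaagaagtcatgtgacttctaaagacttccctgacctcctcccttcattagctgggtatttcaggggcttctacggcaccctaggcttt
The first 4 are rich in G and C and hold the motif, and the TNS3 window holds no match. Motifs were counted over the 250 bases before the start, where 20 of the 27 members hold GGGCGG on either strand, as do 42.31% of 27305 RefSeq promoters. The median GC content of the same bases was 72.8% over the 27 members, 76.0% over the 5 and 58.0% over all promoters. The 27 members had passed the signal filter, whereas all promoters were counted without a filter on expression. Shares over the tested genes alone were not computed. CCAAT (NF-Y) was found in 4 of the 27 and in 33.04% of all promoters, TGANTCA (AP-1) in 2 and 6.6%, GGAATG (TEAD) in 3 and 11.9%, and CACGTG (E-box) in 2 and 6.49%. A CArG box, the serum response element, was found in 0 of the 27 and in 1.14% of all. TGACGTCA (CRE) was found in 0 and 1.77%, TATAAA in 1 and 11.13%, GTCTAGAC (SMAD) in 0 and 0.18%, and an NF-kB motif in 1 and 1.42%. Motifs were searched on both strands and may overlap each other, and GGGCGG matches can overlap by a base.

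SMRT siRNA moved 8 of the 31 members in cells with vehicle, 4 higher and 4 lower, where 15.8% of all genes were called (7.26% higher, 8.54% lower). With median scaling of the arrays the split was 1 higher and 5 lower: TLN2 rose, and ITGB8 (0.39), ACTN1 (0.23) and TNS1 (0.33) did not pass. With CDDP it again moved 4 higher and 4 lower, where 17.3% of all genes were called (7.89% and 9.4%). The vehicle and CDDP versions of this comparison share no array. CAV1, ITGAV and LIMS1 were lower and TLN2 and TNS1 higher in both, 16.1% of the members against 8.29% of all genes called the same way in both (3.46% higher, 4.83% lower). The members were chosen with earlier results of these data known, so these shares are a description.

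CAV1 encodes caveolin-1, the coat protein of caveolae, which also enters focal adhesions. It was at 11.80 and 11.94 in siCtl and 11.28 and 11.07 in siSMRT arrays with vehicle, and at 11.98 in both siCtl arrays and 11.05 and 11.03 in siSMRT arrays with CDDP. All 4 siSMRT arrays lay below the other 8, of which the siNCoR arrays held the lower part (11.54 to 11.74). The siSMRT difference was -0.70 (SE 0.102, 95% interval -0.92 to -0.48, adjusted p = 0.0013) with vehicle and -0.94 (-1.16 to -0.71, 0.000286) with CDDP. A second CAV1 probe gave -0.74 and -1.06.
Under CDDP siNCoR lowered CAV1 too (-0.41, adjusted p = 0.0344; second probe -0.53, 0.0144), although with vehicle its -0.22 did not pass. That call was lost in 9 of 21 alternatives, with an adjusted p up to 0.172. Among these are leaving out siCtl+CDDP replicate 1 (adjusted p = 0.123) or 2 (0.125), siNCoR+CDDP replicate 1 (0.0669) or 2 (0.172), and siSMRT+CDDP replicate 1 (0.0509) or 2 (0.0518).

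TLN2 encodes the second talin. Its siCtl arrays read 8.66 and 8.78 with vehicle and 8.79 and 8.80 with CDDP, its siNCoR arrays 8.91 and 8.66, then 8.86 and 9.14, and its siSMRT arrays 9.33 and 9.42, then 9.46 and 9.66. The siSMRT arrays were above all others. The difference was 0.66 (SE 0.123, adjusted p = 0.00474) with vehicle and 0.76 (adjusted p = 0.00217) with CDDP, and both held in all 21 alternatives.

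ITGAV, the alpha subunit of the vitronectin receptors, was the only integrin alpha subunit that passed for siSMRT. It read 9.79 and 9.85 in siCtl and 9.44 and 9.20 in siSMRT arrays with vehicle, and 9.73 and 9.82 against 8.99 and 9.40 with CDDP. The differences were -0.50 (SE 0.133, adjusted p = 0.026) and -0.58 (0.0128). They lost their call without siCtl+vehicle replicate 1 (0.0932), siCtl+vehicle replicate 2 (0.104) or siSMRT+vehicle replicate 2 (0.172), and with CDDP without siSMRT+CDDP replicate 1 (0.115) or siCtl+CDDP replicate 2 (0.069).
Of the beta subunits that can pair with it, ITGB8 rose with vehicle (0.50, SE 0.148, adjusted p = 0.038; siCtl 6.96 and 7.0, siSMRT 7.72 and 7.25), a value that was 0.27 (adjusted p = 0.302) without siSMRT+vehicle replicate 1 and was also lost without either siCtl+vehicle array (0.161 and 0.103) or either siNCoR+vehicle array (0.0513 and 0.0508). ITGB5 had 0.45 (adjusted p = 0.055) with vehicle and 0.31 with CDDP, and passed both times with the replicate block (0.00572 and 0.0362). Another ITGB5 probe rose in both (0.85, adjusted p = 0.00428, and 0.90, 0.00312), and the third had 0.49 and 0.47, not passing. ITGA4, near the floor at 72.5 to 126.9, had 0.46 and 0.38 and passed only with the block (0.0216 and 0.0447).

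LIMS1 was lower in siSMRT cells (-0.57 with vehicle and -0.61 with CDDP, SE 0.099), and was called in all 21 alternatives. Its second probe does not show this: there the differences were 0.08 and -0.01, so that 1 of its 2 probes above the floor gave the siSMRT effect while both gave the CDDP effect. TNS1 rose by 0.47 and 0.51 with siSMRT (vehicle arrays 7.27 and 7.51 in siCtl, 7.91 and 7.81 in siSMRT). With vehicle its adjusted p was 0.143 without siCtl+vehicle replicate 1 and 0.109 without siSMRT+vehicle replicate 1, and with CDDP 0.0649 without siCtl+CDDP replicate 1 and 0.0778 without siSMRT+CDDP replicate 1.

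Further calls came with 1 treatment only. With vehicle, ACTN1 was higher (0.36, adjusted p = 0.02) and PARVA lower (-0.44, 0.0488) in siSMRT cells. With CDDP, PTK2 (0.75, SE 0.088, adjusted p = 0.000471) and FYN (0.42, 0.0249) were higher and NEDD9 lower (-0.58, 0.0349). PTK2 held in all 21 alternatives, and its second probe was also higher (0.43, 0.0192). Another FYN probe had 0.32 and did not pass (limma adjusted p = 0.073). The FYN call was lost with median scaling (0.40, adjusted p = 0.111) and without a detection filter (0.42, 0.064). It was also lost with an offset of 50 in the background correction (0.29, 0.0511). The PARVA call, of a gene with a signal of 95.6 to 133.8, was lost in 15 of 21 alternatives (adjusted p up to 0.245), of which 10 leave out 1 array: any vehicle array, or either siNCoR+CDDP or siSMRT+CDDP array.
ACTN1 lost its call with median scaling (0.23, adjusted p = 0.367) and without siCtl+vehicle replicate 1 (0.111), siSMRT+vehicle replicate 1 (0.15) or siCtl+vehicle replicate 2 (0.0643), FYN without siSMRT+CDDP replicate 1 (0.0842), siCtl+CDDP replicate 2 (0.139) or siSMRT+CDDP replicate 2 (0.119), and NEDD9 without the same arrays (0.0958, 0.204 and 0.155). The replicate block added VCL (-0.26, 0.0391) and NEDD9 (-0.41, 0.0321) as lower with vehicle, and FERMT2 (-0.35, 0.0273) and TLN1 (-0.29, 0.0398) as lower with CDDP.

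**Figure D4:**
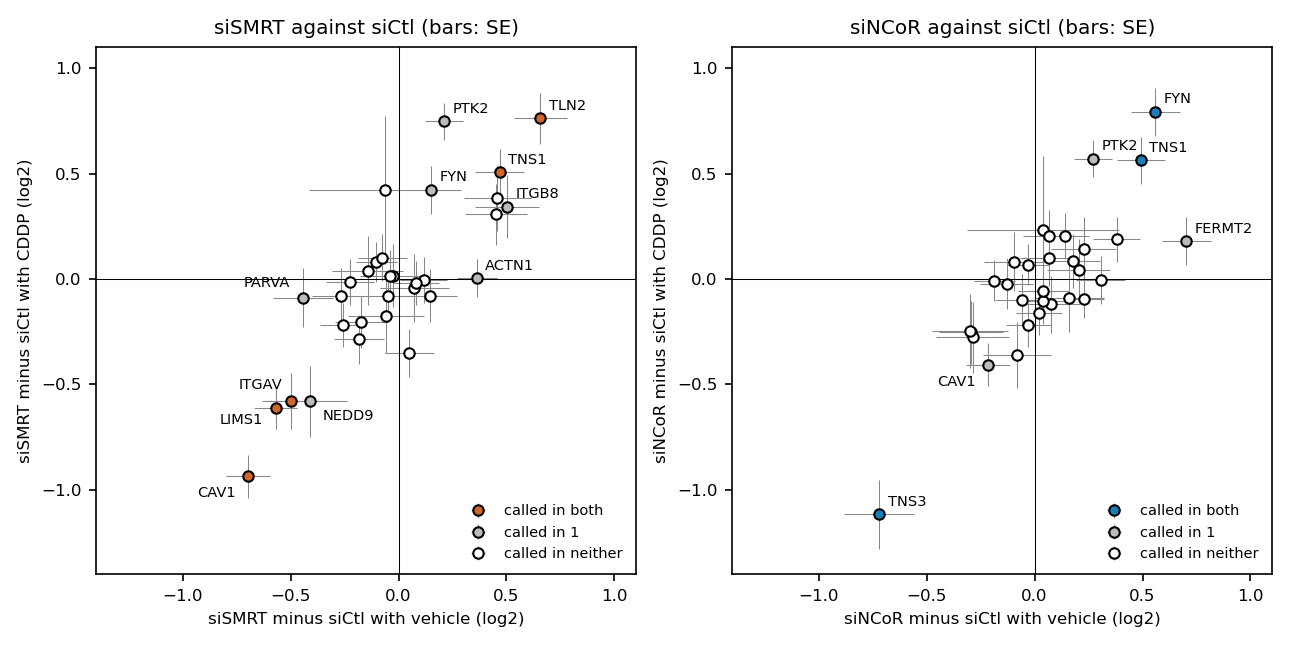
Effect of siSMRT (left) and siNCoR (right) on the 31 members (log2 difference from siCtl), with vehicle on the horizontal and with CDDP on the vertical axis; bars are SE, coloured points were called with both treatments and grey points with 1. CAV1, LIMS1 and ITGAV lie at the lower left and TLN2 and TNS1 at the upper right for siSMRT, and TNS3 lies apart at the lower left for siNCoR.

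NCoR siRNA moved fewer members: 3 higher and 1 lower with vehicle, where 5.26% of all genes were called (2.97% higher, 2.29% lower; 1 higher and 1 lower with median scaling), and 3 higher and 2 lower with CDDP, where 6.58% were (3.49% and 3.09%). It is compared with the same siCtl arrays as siSMRT, so that noise in them enters both comparisons. FYN and TNS1 were higher and TNS3 lower with both treatments, 9.68% of the members against 3.06% of all genes called the same way in both (1.84% higher, 1.22% lower). As for siSMRT, these shares are a description, since the members were chosen with earlier results known.

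TNS3 was lower in siNCoR cells, with -0.72 (SE 0.163, adjusted p = 0.0274) with vehicle and -1.12 (adjusted p = 0.0026) with CDDP, whereas its siSMRT values were -0.14 and 0.04 and did not pass. FYN was higher by 0.56 and 0.79 (SE 0.113; adjusted p = 0.0159 and 0.0023), and its other probes by 0.57 to 0.77. TNS1 was higher by 0.49 and 0.56, next to 0.47 and 0.51 with siSMRT. FERMT2 was higher with vehicle (0.70, SE 0.113, adjusted p = 0.00497; siCtl 11.69 and 11.78, siNCoR 12.53 and 12.35) and had 0.18 with CDDP, not passing. PTK2 was higher with CDDP (0.57, adjusted p = 0.00343), with 0.27 (0.105) with vehicle, but its second probe did not pass (0.18, 0.359). ITGA5, the fibronectin receptor subunit, had 0.38 with vehicle and passed with the replicate block alone (0.0684 without, 0.023 with it).
Without siCtl+vehicle replicate 1 all 4 vehicle calls were lost, with differences of 0.66 for FERMT2 (adjusted p = 0.0534), 0.52 for FYN (0.122), -0.68 for TNS3 (0.161) and 0.37 for TNS1 (0.221). FYN and TNS3 were also lost without siCtl+vehicle replicate 2 (0.0526 and 0.0804) or siNCoR+vehicle replicate 2 (0.121 and 0.202), and TNS1 without siNCoR+vehicle replicate 1 (0.194). With CDDP, FYN, TNS3 and PTK2 held in all 21 alternatives, and TNS1 was lost without siCtl+CDDP replicate 1 (0.0734) or siNCoR+CDDP replicate 2 (0.0609).

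Whether the co-repressor siRNAs altered the CDDP response itself is a difference of differences. None of the 31 members passed for siSMRT against siCtl or for siNCoR against siCtl, at an adjusted p under 0.05 or under 0.2 without the replicate block, although PTK2, FERMT2 and ACTN1, 3 members, had an unadjusted limma p under 0.05 for either siRNA. Of all genes 0.0102% passed for siSMRT and 0% for siNCoR at either threshold. With the replicate number as a block no member passed at 0.05, but PTK2 passed at 0.2 for siSMRT, as did 265 of the 9808 genes against 1 without the block; for siNCoR 1 gene did, and no member. The largest for siSMRT was PTK2, whose fall was smaller in siSMRT cells by 0.54 (SE 0.124, 95% interval 0.27 to 0.81, adjusted p = 0.244, 0.41 and 0.66 in the replicate pairs); with the replicate block its adjusted p was 0.094. In siNCoR cells the PTK2 difference was 0.30 (0.03 to 0.57).
The FERMT2 difference was -0.40 (-0.75 to -0.05) for siSMRT and -0.52 (-0.87 to -0.17) for siNCoR, and that of ACTN1 was -0.36 and -0.33, none passing. By the probes used, all 4 kinases had positive differences under both siRNAs (0.06 to 0.54 and 0.03 to 0.30). Another FYN probe had 0.19 for siSMRT but -0.09 for siNCoR. A further FYN probe fell more with CDDP in siNCoR cells (-0.72) than in siCtl cells (-0.53). The siSMRT and siNCoR sets of differences share the siCtl arrays with each other and with the CDDP response in siCtl cells. The median SE of such a difference is 0.161, against 0.114 for a simple one, and the intervals are wide: for TNS3 and siNCoR, -0.40 with -0.90 to 0.11.

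**Figure D5:**
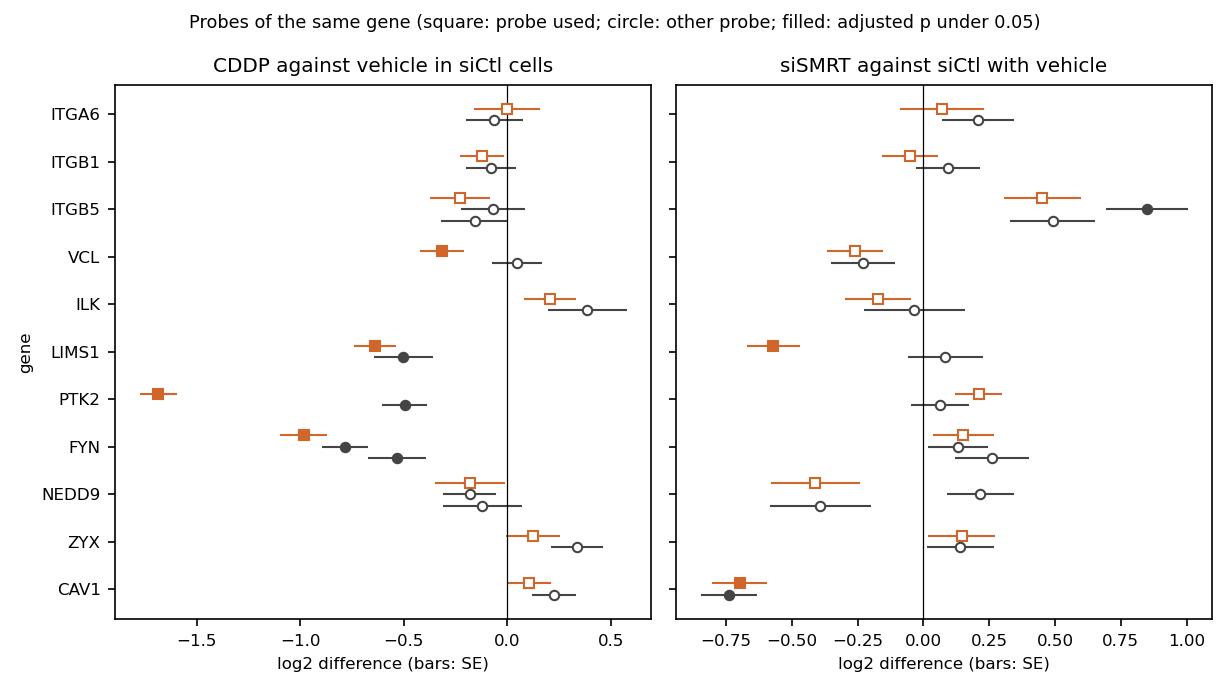
Log2 difference (bars SE) for each probe above the floor of the 11 members that have more than 1, for CDDP in siCtl cells (left) and siSMRT against siCtl with vehicle (right); squares are the probes used, circles the others, filled symbols have an adjusted p under 0.05. The probes of FYN and LIMS1 are lower together on the left and those of CAV1 on the right, while the LIMS1 probes part on the right and the VCL probes on the left.

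Of these 11 members, 4 were called for CDDP in siCtl cells by the probe used (PTK2, FYN, LIMS1 and VCL), and in 3 of them every other probe above the floor was called too. For siSMRT with CDDP, 5 were called (CAV1, PTK2, LIMS1, FYN and NEDD9), and in 3 of them some other probe was not.

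Other genes of the plaque, from a list of 66 of which 45 were tested, moved in both directions with CDDP: 3 higher and 13 lower in siCtl cells, 6 and 13 in siNCoR cells, and 7 and 14 in siSMRT cells. These are 35.6%, 42.2% and 46.7% of those tested, next to 37.6%, 40.7% and 42.9% of all genes. Their medians were -0.07, -0.10 and -0.001. The 4 with the largest changes in siCtl cells were all lower: BCAR3 (-1.96), a partner of p130Cas, ASAP1 (-1.51), an Arf GTPase-activating protein, ARHGEF7 (-1.4), the exchange factor beta-PIX, and PTPN12 (-1.0), a phosphatase of p130Cas. Each was also lower in siNCoR (-2.13, -1.74, -1.30 and -0.81) and siSMRT cells (-2.43, -1.07, -1.31 and -0.92). Of 12 other integrin subunits, 2 were above the floor: ITGB2 rose with CDDP in siCtl cells (0.44, adjusted p = 0.0337) and ITGAE in siSMRT cells (0.40, 0.00827).

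The summed signal of the marker lists moved with the siRNA. The 9 osteoblast lineage markers summed to 3466 to 3724 in siCtl, 3617 to 4093 in siNCoR and 2601 to 2992 in siSMRT arrays. The 5 haematopoietic markers with a probe summed to 592.4 to 748.1, 1115 to 1570 and 869.1 to 979.6, led by LCP1 (250.9 to 1144); CORO1A and a CD14 probe were also above the floor, and PTPRC and CD3E below it. The 7 epithelial markers summed to 693.0 to 792.5, 891.1 to 1189 and 901.7 to 1066, led by EPCAM (a probe reaching 858.0), with CDH1, CLDN4, ESRP1 and the keratins below the floor, and the 4 endothelial markers to 279.1 to 308.4, 292.4 to 323.0 and 310.4 to 353.7, with PECAM1 and VWF above and CDH5 and KDR below it. The part of these shifts in the siRNA effects on CAV1, TLN2, ITGAV, TNS1, TNS3 and FYN was not tested.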

How the data were processed

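The authors deposited a linear probe intensity for each of the 12 Illumina arrays (48803 probes), exported from BeadStudio per the labels, whose medians differ between arrays and whose lowest values are 30.4 to 38.9, so that no background subtraction is seen. The authors' own processed intensity table, made with Corgon and a joint normalization per the methods, served as an alternative. The normexp correction of background (saddle, offset 16) came first, then quantile normalization, then log2. R 4.3.3 and limma 3.58.1 were used.

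Probes with 1 annotated gene (27578) were kept where the quantile-normalized uncorrected signal passed 100 in both arrays of at least 1 group; 14801 probes passed, 12638 with 1 gene, and the brightest probe stands for each of 9808 genes. limma was fitted with 1 coefficient per group and empirical Bayes variances, and p values were adjusted by Benjamini-Hochberg over all genes. The script was tested on simulated data with known changes and with noise drawn independently for each array. That noise lacks the deviation shared by same-numbered arrays described below.

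Whether replicate numbers pair arrays was checked: same-numbered arrays deviated together, with correlations of 0.203 to 0.42 in 15 of 15 pairs of groups, so the numbers pair the arrays. The fit with the replicate number as a block is quoted where it changed a call. All other counts, SE and adjusted p values come from the fit without the block. So do the genes called in several comparisons at once, which were not counted with the block. Replicate arrays correlated at 0.994 to 0.996 and shared 0 identical raw values. The labels do not say how cultures were separated; the study calls the replicates biological.

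Members and gene lists were chosen with earlier results of these data known. Named genes are all 38 members, with values per array for called members that the results turn on, and up to 4 of the other plaque genes with the largest change among those called for CDDP in siCtl cells. The number of arrays limits the precision. Alternatives changed the background correction, normalization, source of values, filter, probes counted, arrays fitted, pairing, or left out 1 array. Figures were made with Python 3.11.15, pandas 2.3.3 and matplotlib 3.10.9.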

Additional observations from a re-analysis of the deposited data

How the results depend on the processing

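Of 55 called differences of members, 30 kept their call in all 21 alternatives and 25 lost it in at least 1, and 0 changed direction. The losses named above with each gene are not always the complete list. The alternative that counts every probe took the probe with the lowest adjusted p, unless another passed in the opposite direction. Where a probe of the gene passed, its other probes that disagreed without passing could thus neither remove nor reverse the call. Leaving out 1 array gave 6 to 11 members called for CDDP in siCtl cells, 9 to 11 in siNCoR cells and 7 to 11 in siSMRT cells. For siSMRT against siCtl it gave 3 to 8 with vehicle and 5 to 9 with CDDP, for siNCoR 0 to 5 and 3 to 5, and for both differences between CDDP responses 0 to 0. The lowest values came without siCtl+vehicle replicate 1 for CDDP in siCtl cells (6), siSMRT with vehicle (3) and siNCoR with vehicle (0). Counts also moved by over 1.5 times for siSMRT with vehicle without siSMRT+vehicle replicate 1 (4) or siCtl+vehicle replicate 2 (5), for siNCoR with vehicle without siCtl+vehicle replicate 2 (2) or siNCoR+vehicle replicate 2 (2), for siSMRT with CDDP without siCtl+CDDP replicate 2 (5), and for siNCoR with CDDP without siCtl+CDDP replicate 1 (3) or siNCoR+CDDP replicate 2 (3). Without a detection filter siSMRT against siCtl with vehicle gave 4 members in place of 8. With median scaling siNCoR against siCtl gave 2 in place of 4 with vehicle and 3 in place of 5 with CDDP. The cause was not tested. No share of all genes called is given for the fits without 1 array, without a filter or with median scaling. Whether the member counts moved more than those of genes in general is therefore not shown. With median scaling the median log2 difference of all genes was -0.11 for CDDP in siNCoR cells (0.03 with quantile normalization), -0.12 for siSMRT with vehicle (0.01) and 0.13 for the siSMRT response difference (0). In the fit that takes the replicate number as a block, calls rose over all genes too. The counts were 11, 15 and 13 for CDDP in siCtl, siNCoR and siSMRT cells (all genes 44.5%, 48.3% and 50.7%). For siSMRT they were 12 with vehicle and 12 with CDDP (all genes 23.6% and 25.6%). For siNCoR they were 5 and 5 (all genes 10.1% and 12.8%). Both differences of responses had 0 (all genes 0.0102% for siSMRT and 0% for siNCoR). The block removed no call of a member. FYN, PXN, PARVA and ITGA4 lie near the floor of 100, where background limits the measurement. ITGB8 (signal 105.3 to 233.2) and TNS1 (131.5 to 278.9) are dim as well.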
